A study of Homo sapiens with 3 samples.

Results

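The expression of 10 genes that mark or control the epithelial-mesenchymal state was followed in PANC-1 cells, an established line from a human pancreatic ductal carcinoma, after treatment with cantharidin or okadaic acid. The genes were the cell adhesion genes CDH1 (E-cadherin), EPCAM and CDH2 (N-cadherin), the intermediate filament gene VIM (vimentin), and the transcription factor genes SNAI1, SNAI2, TWIST1, TWIST2, ZEB1 and ZEB2. They were taken as a fixed list of symbols, and their probes were found by RefSeq accession. This gave 13 probes for 9 of the 10 genes, out of 34041 probes and 19699 named genes. No probe was matched to TWIST2. By the brightest probe of each gene, both cadherin genes and EPCAM were lower with both agents, and ZEB1, ZEB2, SNAI1 and SNAI2 were higher with both. For ZEB1 and ZEB2 the rise with okadaic acid was seen on the brighter probe only. VIM stayed within 1.5-fold of control with cantharidin, and TWIST1 with okadaic acid.

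Total RNA was hybridised to 1-colour human oligonucleotide arrays, with 1 array each for control cells, cells given cantharidin and cells given okadaic acid. The label of each treated sample gives 20 µM of its agent, and the treatment lasted 24 h, although the shared treatment note states the dose once and can be read as that of cantharidin alone. The labels name neither an agent nor a vehicle for the control. Cantharidin and okadaic acid are known inhibitors of the serine/threonine phosphatase PP2A. Since each group had a single array, differences could not be checked in replicates or tested.

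Epithelial cells are joined to each other by E-cadherin, which binds its like on the neighbouring cell and is held to the actin cytoskeleton by catenins. EPCAM is a further surface protein of epithelial cells. Mesenchymal cells usually carry N-cadherin and vimentin in place of E-cadherin and most epithelial proteins. The SNAI and ZEB proteins are zinc finger repressors that bind E-box sequences in DNA, among them that of the CDH1 promoter, and the TWIST proteins are helix-loop-helix factors that bind E-boxes as well. PANC-1 is known as a line of mixed state, with vimentin and with little E-cadherin.

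The promoter windows that follow are those of CDH2, ZEB1 and ZEB2, whose signals differed from control with both agents. SNAI2 differed with both agents as well, but it was left out of the promoter search and its windows are not reported here. On their brighter probes, CDH2 showed the largest calculated fall of the members, and ZEB1 and ZEB2 were higher with both agents. The fall of CDH1 is known only as a bound. Each is the window of 250 bases before a transcription start in RefSeq (GRCh38.p14), written 5′ to 3′ on the strand of the gene, and for ZEB1 and CDH2 the outermost of the starts listed was taken. Capitals mark every E-box of the form CANNTG, where N is any base. The windows lie at chr18:28177131-28177380 on the minus strand for CDH2, chr10:31318167-31318416 on the plus strand for ZEB1 and chr2:144520120-144520369 on the minus strand for ZEB2.
CDH2: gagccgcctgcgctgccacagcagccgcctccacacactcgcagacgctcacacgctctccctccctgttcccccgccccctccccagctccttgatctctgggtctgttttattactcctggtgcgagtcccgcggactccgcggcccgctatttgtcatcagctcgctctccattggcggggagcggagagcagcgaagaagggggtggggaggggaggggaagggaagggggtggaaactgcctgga
ZEB1: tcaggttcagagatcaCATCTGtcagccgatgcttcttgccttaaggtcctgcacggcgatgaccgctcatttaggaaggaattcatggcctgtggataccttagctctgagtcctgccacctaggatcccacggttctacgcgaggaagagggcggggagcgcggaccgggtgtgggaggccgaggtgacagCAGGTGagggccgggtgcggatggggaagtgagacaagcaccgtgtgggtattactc
ZEB2: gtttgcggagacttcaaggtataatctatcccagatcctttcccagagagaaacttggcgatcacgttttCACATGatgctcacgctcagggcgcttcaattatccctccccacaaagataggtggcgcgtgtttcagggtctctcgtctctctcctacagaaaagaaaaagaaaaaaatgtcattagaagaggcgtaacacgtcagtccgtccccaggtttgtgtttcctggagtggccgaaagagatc
The CDH2 window held no E-box, and the window of its other start held 1, CAGATG. The ZEB1 window held CATCTG and CAGGTG, which began 234 and 57 bases before the start, and the ZEB2 window held CACATG at 180 bases before it. The form CACCTG, which reads CAGGTG on the other strand and is the one best known for SNAI and ZEB proteins, was found in 2 of the 7 ZEB1 windows and in no window of CDH2, VIM, ZEB2 or TWIST2. Neither VIM nor TWIST2 had a CANNTG in its window. Of all 35116 RefSeq windows of this length, 61.8% held CANNTG and 17.5% held CACCTG on either strand, so that a match is common, and it is given as a description of the letters only.

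Signals are processed intensities, in the arbitrary units of the scanner, with the 1-sigma error given by the scanner software for each spot. That error covers the measurement of a spot and not the variation between cultures. The arrays were scaled to their 75th percentile, which lay at 784 in control, 713 in cantharidin and 936 in okadaic acid cells, and differences are log2 values after this scaling. Between 23071 and 25103 of the probes were well above background on an array. The lowest signal of such a probe, called the floor here, was 35.0 in control, 21.9 in cantharidin and 58.0 in okadaic acid cells, so the okadaic acid array measured dim transcripts least well. If only 1 array of a pair measured a probe above background, the fold is written "at least". For it the dim array was given its own signal or its floor, whichever was larger. It is a lower bound under this processing only, and another background correction gave smaller folds for some probes. Where the dim signal lay above the floor, the bound equals the fold between the signals. A gene was called higher or lower from a fold of 1.5, taken from the difference between the scaled signals and not from the bound.

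The cells were checked against markers of ductal epithelium. All 6 markers (KRT7, KRT8, KRT18, KRT19, SOX9 and MUC1) were well above background on each array. Genes of other cells were also seen, with 2 of 3 acinar, 2 or 3 of 4 endocrine, 1 to 3 of 6 fibroblast, 2 or 3 of 3 endothelial and 3 of 3 leukocyte markers well above background. The summed intensity of the fibroblast markers was 696 in control, 477 in cantharidin and 228 in okadaic acid cells. These sums are unscaled and include probes that were not well above background. The largest part was COL1A1 at 528 in control and PDGFRB at 375 with cantharidin, and with okadaic acid only DCN was well above background. The sums are thus not read as a graded fall. Neither PDGFRA nor LUM rose well above background anywhere. The leukocyte sum was 3166, 2325 and 11839, mostly CD14. Their part in the results was not tested. In cells grown as a line, fewer cells of a kind and less RNA per cell cannot be told apart.

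**Figure D1:**
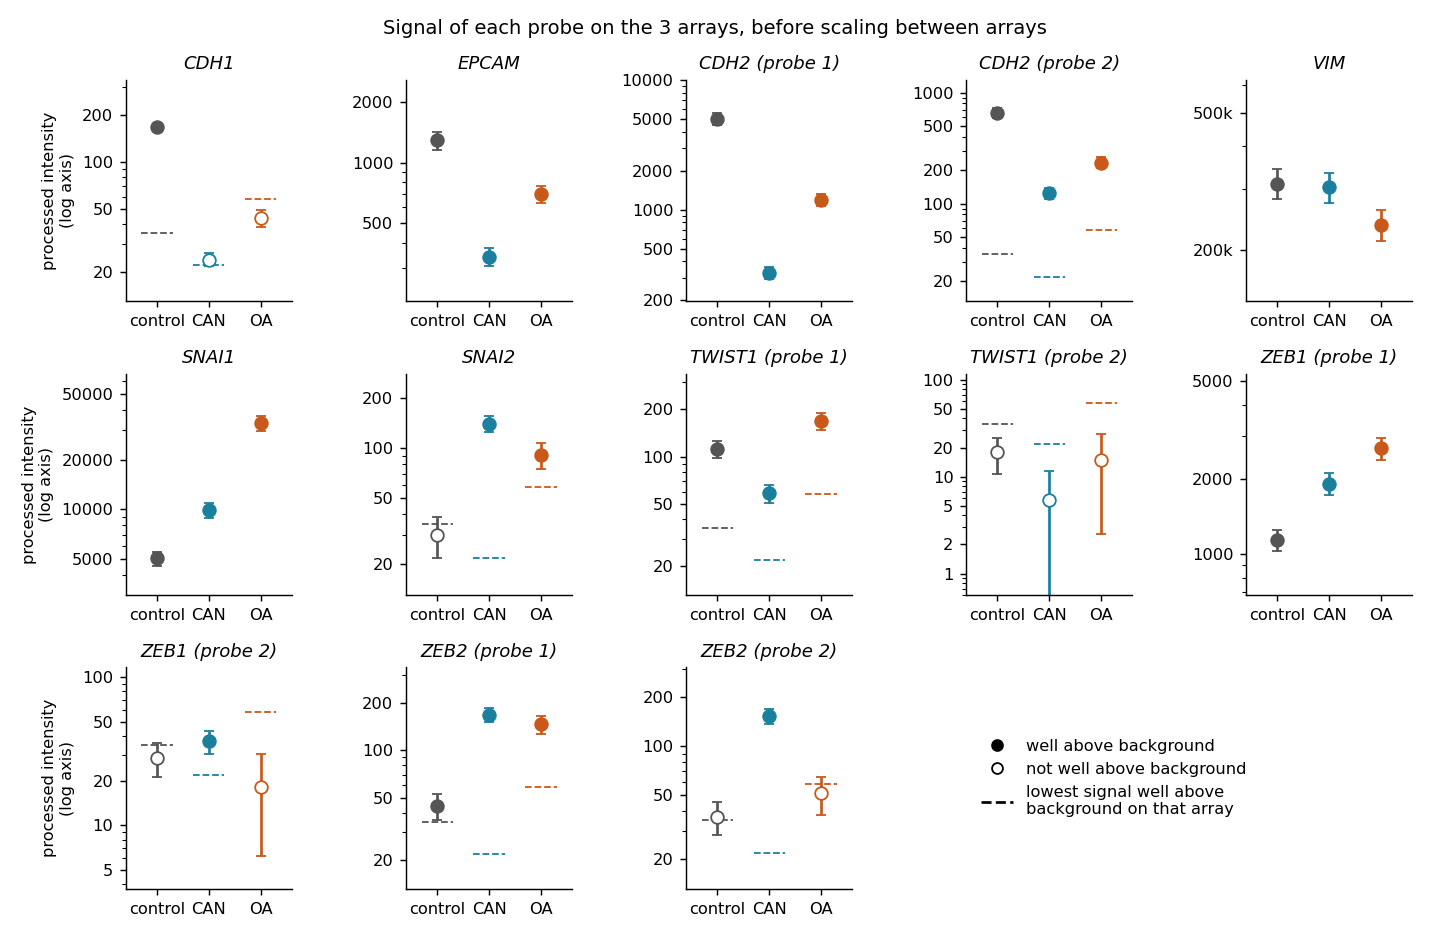
Processed intensity (log axis, arbitrary units) of each of the 13 probes in control, cantharidin (CAN) and okadaic acid (OA) cells, with the error of the scanner software as bars. Open points were not well above background, dashes give the floor of each array where it falls within the axis, and probe 1 is the brighter probe of a gene. CDH1, EPCAM and CDH2 were brightest in control cells, while SNAI1 and ZEB1 (probe 1) were dimmest there.

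Cantharidin and okadaic acid were each compared with control first. Of the 9 genes with a probe, cantharidin cells had 4 that were higher by 1.5-fold or more and 4 that were lower by as much. Over all 16644 genes compared, 27.5% were higher and 34.1% lower. With okadaic acid the counts were also 4 and 4 of 9, where 28.1% of 16166 genes were higher and 28.8% lower, or 36.6% and 22.4% when the arrays were not scaled. These counts are not read as a departure from the shares over all genes. Both comparisons used the same control array, so they are set side by side and not counted as separate evidence. The median difference over all genes was -0.16 with cantharidin and 0.01 with okadaic acid. By probe, 5 of 12 were higher and 5 lower with cantharidin (26.4% and 33.0% of all probes), and 4 of 10 were higher and 5 lower with okadaic acid (26.5% and 27.7%).

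CDH1 was the best measured of the dim members, because its probe is printed in 10 spots on the array. In control cells the spots ran from 149 to 192 with a median of 168, and all 10 were well above background. In cantharidin cells the 8 spots without an outlier flag ran from 14.2 to 36.2 with a median of 24.4, and 2 of them were well above background. In okadaic acid cells 9 spots ran from 20.5 to 78.6 with a median of 47.3, and 1 was well above background. The spots of control cells thus did not overlap with those used for either treated array. As the spots repeat 1 RNA sample on 1 array, this describes the measurement and not the cultures. The share of other probes with such a gap was not counted. E-cadherin RNA was at least 6.34-fold lower with cantharidin and at least 3.43-fold lower with okadaic acid, with log2 differences of -2.66 ± 0.15 and -2.18 ± 0.18 between the measured means. The SD of the log2 signal over spots was 0.10 in control, 0.42 in cantharidin and 0.53 in okadaic acid cells, so most of the spread lay where the signal was near the floor. As CDH1 was not well above background on either treated array, no difference is given between the agents. With the normexp background correction the falls were smaller, at -1.09 and -1.02. One cantharidin spot with an outlier flag stood at 667, above every control spot, and keeping all flagged spots gave -2.29 with cantharidin.

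**Figure D2:**
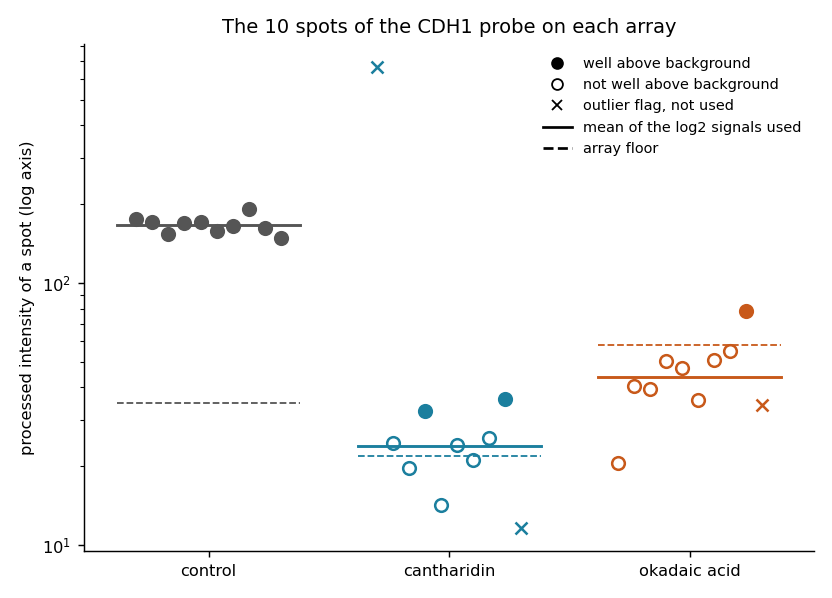
Processed intensity (log axis, arbitrary units) of the 10 spots of the CDH1 probe on each array, with outlier spots as crosses, the mean of the log2 signals used as a line and the array floor as dashes. Control spots lie between 149 and 192, and the spots used on the treated arrays lie between 14.2 and 78.6. The cross at 667 was not used.

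EPCAM had 1 probe, with intensities of 1286 ± 129 in control, 342 ± 34.7 in cantharidin and 698 ± 71.0 in okadaic acid cells. The signal was highest in control and lowest with cantharidin, and all arrays measured it well above the floor. EPCAM was 3.42-fold lower with cantharidin (log2 -1.77 ± 0.21) and 2.20-fold lower with okadaic acid (-1.14 ± 0.21). It stayed past 1.5-fold against control in each of 9 alternative settings, between -1.91 and -1.52 with cantharidin and between -1.26 and -0.88 with okadaic acid. For a probe well above background on all 3 arrays, however, settings that change only the filter or the floor of dim signals leave its value as it was. Here and below, such settings add no check for these probes.

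CDH2, the mesenchymal cadherin, moved in the same direction as CDH1 and EPCAM. Its brighter probe gave 5023 ± 502 in control, 328 ± 33.2 in cantharidin and 1195 ± 120.1 in okadaic acid cells. That is 13.9-fold lower with cantharidin (log2 -3.80 ± 0.21) and 5.02-fold lower with okadaic acid (-2.33 ± 0.20). The former is the largest difference calculated for any member, although that of CDH1 is known only as a bound. The second CDH2 probe, matched to the same transcript accession, gave 654 ± 65.8, 124 ± 13.9 and 234 ± 26.7. Its falls were 4.80-fold and 3.34-fold, smaller than those of the first probe by more than the errors of both with either agent, but with the same order of the arrays. N-cadherin RNA was thus lower with both agents on both probes and in every alternative that could change its values.

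VIM stood apart from the cadherins. Its intensity was 311685 ± 31169 in control, 304354 ± 30435 in cantharidin and 236756 ± 23676 in okadaic acid cells, far above the floor and not saturated. Cantharidin cells differed from control by 1.07-fold (log2 0.10 ± 0.20), which is within the error of the spots. Okadaic acid cells were 1.57-fold lower (-0.65 ± 0.20), just past the threshold. That call was lost in 4 of 9 alternatives, which were the scaling to probes measured on all arrays, quantile normalization, no scaling and the deposited normalized table. The filter and floor settings among the 9 could not change it. Quantile normalization gave the smallest difference at -0.31.

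**Figure D3:**
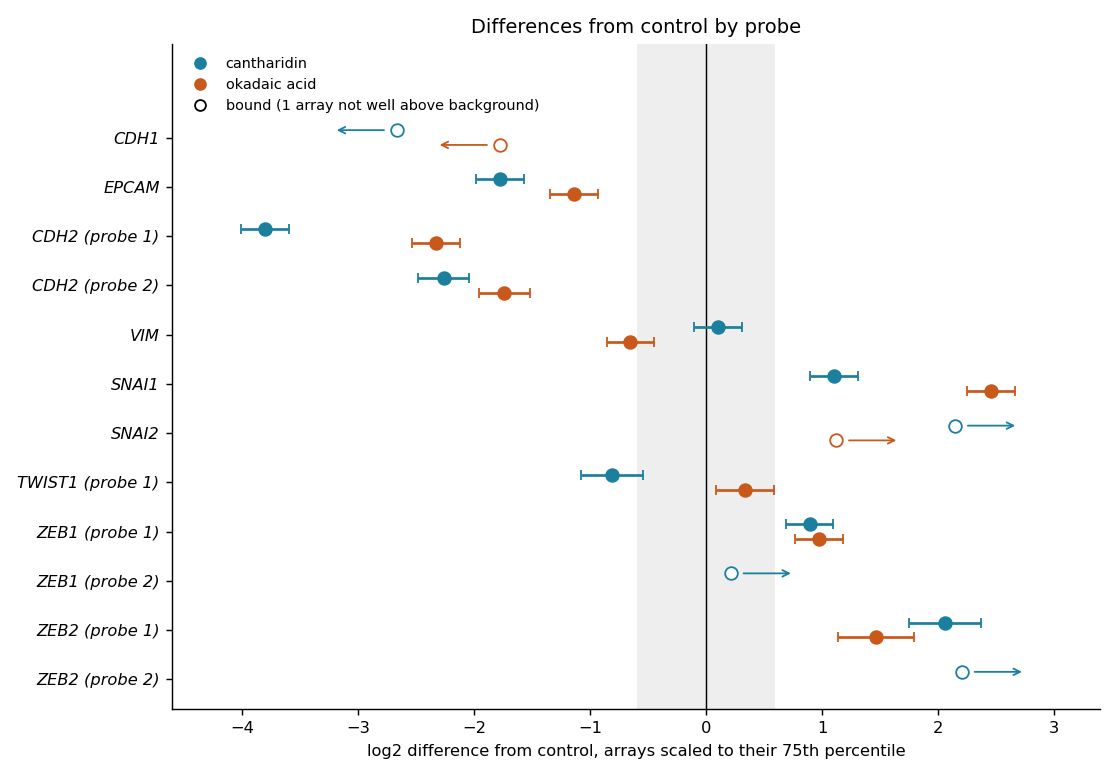
Log2 difference from control, after scaling to the 75th percentile, for each probe that was well above background on at least 1 array of a comparison, with the propagated error of the scanner software as bars. The shaded band marks differences under 1.5-fold, and open points with arrows are bounds. CDH1, EPCAM and CDH2 lie to the left of the band for both agents, SNAI1, SNAI2, ZEB1 (probe 1) and ZEB2 (probe 1) lie to the right, and TWIST1 (probe 1) lies on different sides of 0.

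The SNAI genes encode the repressors Snail and Slug. SNAI1 had intensities of 5049 ± 505 in control, 9865 ± 987 in cantharidin and 33115 ± 3312 in okadaic acid cells. It was 2.15-fold higher with cantharidin (log2 1.1 ± 0.20) and 5.49-fold higher with okadaic acid (2.46 ± 0.20), and both calls held in every alternative that could change the values. SNAI2 was dim, at 30.2 ± 8.41, 141 ± 15.2 and 90.9 ± 15.9. Control cells gave no signal well above background, whereas both agents did, at 6.43 times the floor with cantharidin and 1.57 times the floor with okadaic acid. SNAI2 was at least 4.43-fold higher with cantharidin and at least 2.18-fold higher with okadaic acid. Under the normexp background correction the log2 differences fell to 0.98 with cantharidin and 0.33 with okadaic acid. The former is smaller than the bound given, and the latter is under 1.5-fold.

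Of the ZEB genes, ZEB1 was bright on 1 probe, with 1136 ± 114 in control, 1918 ± 192 in cantharidin and 2668 ± 267 in okadaic acid cells. It was 1.86-fold higher with cantharidin (log2 0.89 ± 0.20) and 1.97-fold higher with okadaic acid (0.98 ± 0.20), and every alternative left both past 1.5-fold. The second ZEB1 probe was well above background with cantharidin only, at 36.9 ± 6.54, which is at least 1.16-fold above control. ZEB2 was dim in control cells. Its brighter probe gave 44.3 ± 8.38, 168 ± 17.6 and 146 ± 18.9, where the control value was 1.27 times the floor. It was 4.17-fold higher with cantharidin (log2 2.06 ± 0.31) and 2.76-fold higher with okadaic acid (1.47 ± 0.33). The second ZEB2 probe was well above background with cantharidin only, at 153 ± 16.4, and at least 4.61-fold higher than in control. With okadaic acid it read 51.1 ± 13.8, at 0.88 times the floor, where the brighter probe read 146. It thus gave no fold for okadaic acid. The rise of ZEB2 with that agent rests on 1 probe, which the other did not match. With the normexp correction the brighter probe gave 1.02 and 0.61, still past 1.5-fold. The second probe then gave 1.02 with cantharidin, smaller than its bound.

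TWIST1 was measured by 1 of its 2 probes, at 113 ± 13.8 in control, 58.3 ± 7.94 in cantharidin and 169 ± 21.0 in okadaic acid cells. The values lay near the floor, at 2.66 to 3.22 times the floor of their array. TWIST1 was 1.75-fold lower with cantharidin (log2 -0.81 ± 0.26) and 1.26-fold higher with okadaic acid (0.33 ± 0.25). The fall with cantharidin was lost under the normexp correction, at -0.38, and the difference with okadaic acid reached 0.59 without scaling, just past 1.5-fold. The other TWIST1 probe did not reach the floor on any of the 3 arrays.

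The agents were then compared directly, as okadaic acid against cantharidin. Of the 8 genes that could be compared, 4 were higher with okadaic acid and 3 were lower by 1.5-fold or more, where 29.5% and 22.3% of 16200 genes were. By probe, 4 of 11 were higher and 5 lower, against 28.0% and 22.5% of all probes. The 5 include the second ZEB1 probe, whose okadaic acid signal was under the floor. With that signal set to the floor its log2 difference was 0.26, in the other direction. Without scaling, 47.1% of genes were higher and 13.9% lower in this comparison. CDH2 was 2.77-fold higher (log2 1.47 ± 0.21) on its brighter probe and 1.44-fold higher on the other. SNAI1 was 2.56-fold higher (1.35 ± 0.20) and TWIST1 2.21-fold higher (1.14 ± 0.27), and EPCAM was 1.55-fold higher (0.64 ± 0.21). SNAI2 was 2.03-fold lower (-1.02 ± 0.30), VIM 1.69-fold lower (-0.76 ± 0.20) and ZEB2 1.51-fold lower (-0.59 ± 0.24) on its brighter probe. The second ZEB2 probe was at least 3.47-fold lower, with its okadaic acid signal under the floor. ZEB1 differed by 1.06-fold. The calls for SNAI1, TWIST1, SNAI2 and the brighter CDH2 probe held in every alternative at 1.5-fold. Those of EPCAM, VIM and the brighter ZEB2 probe were each lost in 2 or 3. Thus the repressor genes did not share 1 order between the agents, since SNAI1 was higher with okadaic acid and SNAI2 with cantharidin. The dose of okadaic acid is given only in its sample label, so equal doses are not certain, and the inhibition of PP2A by each agent was not measured on these arrays.

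Genes around the members were taken from 8 further lists. Over all genes compared, 27.5% were higher and 34.1% lower with cantharidin, and 28.1% and 28.8% with okadaic acid. Genes in both directions are thus common, and a split list is not read as a result about that list. The epithelial junction and polarity list, which holds claudins, desmosome and tight junction genes, did not move as one. With cantharidin 8 of 25 genes were higher and 11 lower, and with okadaic acid 8 and 10 of 25. CLDN4, a tight junction claudin, was 16.2-fold lower with cantharidin and 2.83-fold lower with okadaic acid. The junction plaque genes CGN and PKP2 were 3.77-fold and 3.48-fold lower with cantharidin, and CLDN7 and SPINT2, an inhibitor of surface serine proteases, were 3.36-fold and 3.26-fold lower with okadaic acid. By contrast, the tight junction scaffold gene TJP1 was 4.21-fold and 3.70-fold higher, and CLDN3 3.24-fold and 21.2-fold higher. CLDN1 was 4.0-fold higher with cantharidin, and the desmosome gene DSP 3.66-fold higher with okadaic acid. The list's median difference was -0.38 with cantharidin. It was -0.47 with okadaic acid, but 0.05 when dim signals were set to the floor.

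Regulators of the epithelial state were divided as well. With cantharidin 5 of 12 were higher and 5 lower, and with okadaic acid 5 and 3 of 11. ELF3, an epithelial ETS factor, was 9.82-fold lower with cantharidin, followed by FOXA2 at 2.33-fold and GRHL2 at 1.75-fold lower. GRHL2 and GRHL3 were 1.54-fold and 1.52-fold lower with okadaic acid. GRHL1 was 2.31-fold and 5.39-fold higher with cantharidin and okadaic acid, although its other probe gave log2 differences of 0.24 and 0.13. The Kruppel-like factor genes KLF4 (1.93-fold and 2.47-fold) and KLF5 (1.71-fold and 6.26-fold) were higher with both agents. ESRP1, a splicing regulator of epithelial cells, was at least 3.11-fold lower with cantharidin and at least 1.98-fold lower with okadaic acid, and is named here after its values were seen.

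The mesenchymal list of matrix, cytoskeleton and surface genes was lower than control for the most part. With cantharidin 21 of 30 genes were lower and 4 higher, with a median of -1.1, and with okadaic acid 18 of 31 were lower and 4 higher, with a median of -0.77. The corresponding medians over all genes were -0.16 and 0.01, and the list's medians stayed below 0 in all alternatives. The collagen gene COL5A2 was 9.74-fold lower with cantharidin and 14.2-fold lower with okadaic acid. S100A4 and DKK1, a secreted Wnt inhibitor, were 7.26-fold and 6.98-fold lower with cantharidin. The receptor genes AXL and CD44 were 12.2-fold and 5.10-fold lower with okadaic acid. Exceptions were TAGLN, an actin-binding protein of smooth muscle, at 2.65-fold and 4.15-fold higher, LOX, a collagen cross-linking enzyme, at 11.3-fold higher with okadaic acid, THY1 at 1.57-fold higher with okadaic acid, and TNC and COL3A1 at 2.87-fold and 2.69-fold higher with cantharidin. FN1 (fibronectin), with a single matched probe, could not be told from background on the 3 arrays.

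**Figure D4:**
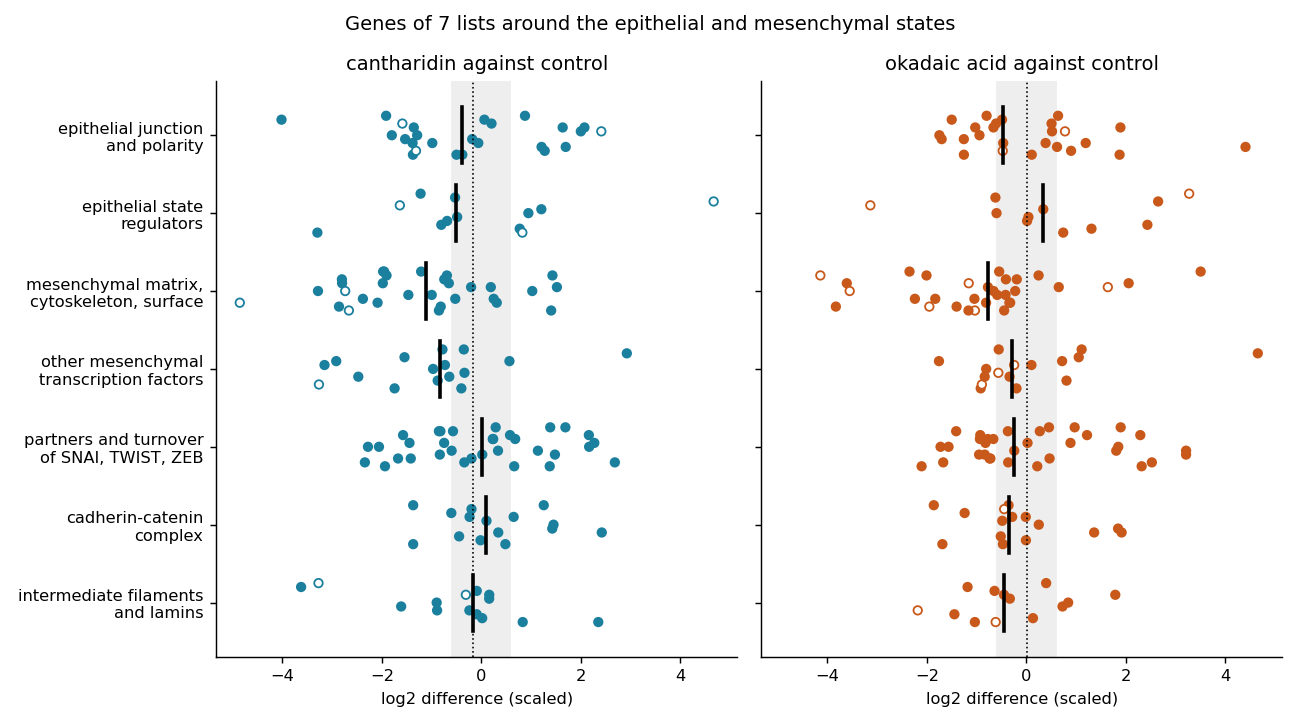
Log2 difference from control (scaled to the 75th percentile) of each gene in 7 lists, for cantharidin and okadaic acid. Filled points were well above background on both arrays and open points on 1, black bars are list medians, the dotted line is the median of all genes, and the shaded band marks differences under 1.5-fold. The mesenchymal list has medians of -1.1 and -0.77, and every list holds genes on both sides of the band.

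Other transcription factors linked to the mesenchymal state were mostly lower with cantharidin (11 of 16, 1 higher, median -0.83) and evenly split with okadaic acid (5 lower and 5 higher of 16, median -0.29). The homeobox gene MSX1 was 7.59-fold and 25.1-fold higher. HMGA2, which encodes a chromatin protein, was 8.89-fold lower with cantharidin on its brightest probe, while its other probes gave log2 differences of -0.07 and 1.53. SOX9, a ductal factor, was 7.55-fold and 3.38-fold lower, and FOXC2 5.55-fold lower with cantharidin. With okadaic acid ETS1 and TCF12 were 1.89-fold and 1.79-fold lower, and GSC 2.16-fold higher. Against cantharidin, okadaic acid cells had 8 of 15 of these factors higher and 0 lower, where 29.5% and 22.3% of all genes were. The median was 1.16, where that of all genes was 0.13.

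The partners, corepressors and turnover factors of the SNAI, TWIST and ZEB proteins had 11 genes higher and 13 lower of 33 with cantharidin, and 11 and 14 of 33 with okadaic acid. KDM1A, the histone demethylase that Snail recruits, was 4.16-fold and 3.31-fold lower. The histone methyltransferase gene SUV39H1 was 5.07-fold and 3.19-fold lower, with its other probe at log2 -0.63 and -0.71, and EHMT2 was 4.85-fold lower with cantharidin. EP300, a histone acetyltransferase, was 6.42-fold and 5.74-fold higher. RELA and SMARCA4, which encode an NF-κB subunit and a chromatin remodelling enzyme, were 4.83-fold and 4.49-fold higher with cantharidin. Of the genes for protein turnover, the ubiquitin ligase gene FBXW7 and the deubiquitinase gene USP37 were both 9.24-fold higher with okadaic acid, with the other USP37 probe at log2 1.07, and FBXL5 was 4.31-fold lower.

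Within the cadherin-catenin complex, CTNNB1 (beta-catenin) differed from control by 0.10 and -0.49 on the log2 scale with cantharidin and okadaic acid, and CTNND1 by -0.45 and -0.52, all under 1.5-fold. CTNNA1 (alpha-catenin) was 2.39-fold higher with cantharidin, with a log2 difference of 1.25, and differed by -0.36 with okadaic acid. These catenins are named after their values were seen. Among the 15 genes compared, 5 were higher and 3 lower with cantharidin, and 3 and 3 with okadaic acid. VCL (vinculin), NECTIN2 and KIFC3 were lower with both agents, by 2.58-fold, 2.58-fold and 1.52-fold with cantharidin and by 3.64-fold, 3.23-fold and 2.37-fold with okadaic acid. CBLL1, a ubiquitin ligase that acts on E-cadherin, was 5.35-fold and 3.77-fold higher, and NECTIN1 2.69-fold and 3.59-fold higher. EPS8 was 2.73-fold higher with cantharidin and PTPN1 2.57-fold higher with okadaic acid.

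Beside VIM, intermediate filament and lamin genes were compared. With cantharidin 2 of 14 were higher and 5 lower, and with okadaic acid 3 and 6 of 13. LMNB1, which encodes lamin B1, was 12.3-fold and 2.73-fold lower, and LMNB2 1.86-fold and 2.27-fold lower. The filament gene NES was 3.06-fold lower with cantharidin. PRPH (peripherin) was 5.10-fold and 1.65-fold higher. With okadaic acid NEFH was 1.79-fold and SYNM 3.45-fold higher. BFSP1 was 1.78-fold higher with cantharidin and 2.05-fold lower with okadaic acid. Of 6 antisense RNAs named for the members or their family, 2 had a probe. ZEB1-AS1, transcribed opposite to ZEB1, had intensities of 177, 71.3 and 146 and was 2.25-fold lower with cantharidin and 1.45-fold lower with okadaic acid, where ZEB1 itself was higher. SNAI3-AS1 differed by less than 1.5-fold with either agent.

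For each member measured on all 3 arrays, the nearest of 129 list genes was found by the distance between the pairs of log2 differences from control. Each gene was represented by its brightest probe. EPCAM lay nearest to PKP2, at a distance of 0.19, and CDH2 to CLDN4, at 0.85, so that no listed gene came close to the brighter CDH2 probe. No distance was computed for the second CDH2 probe. Its differences of -2.26 and -1.74 were near those of SUV39H1, at -2.34 and -1.67. VIM lay nearest to DSC2 (0.11), SNAI1 to GRHL1 (0.11), TWIST1 to SIN3A (0.08), ZEB1 to KLF4 (0.34) and ZEB2 to SMARCA4 (0.39). With 3 arrays that share a control, these distances describe the values only.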

How the data were processed

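Gene expression was measured on 3 Agilent 1-colour arrays on 1 slide and 1 scan, so group and position on the slide cannot be told apart. Sample titles gave the groups. The authors deposited spot intensity values from Feature Extraction 11.0.1.1, background-subtracted and detrended within each array (probe annotation hg19, per the file headers), and a table of normalized log2 values, whose method is not given in the sources used here and which served as an alternative. Its columns had medians of 7.74 and correlated with their own array at 0.998 or more.

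For each probe, log2 processed signals of all spots that carried no outlier flag were averaged and scaled to the 75th percentile of each array. Accessions were matched without version to RefSeq transcripts of GRCh38.p14, for names only, which named 25705 probes. A gene was represented by its brightest probe on average, and comparison of a probe required 1 of the 2 arrays to measure it well above background. No pseudocount, test or p-value was used. Spot errors were those of the scanner software. Over probes with 10 spots, the median SD of log2 signals was 0.06 to 0.09, against a median software error of 0.15. Besides the members, the text names up to 3 genes per list, agent and direction with the largest difference past 1.5-fold among genes measured on both arrays, the nearest list gene of each member and the cell type markers, and others only where stated. Some genes that count in their lists are not reported here by name. The members and lists were chosen with earlier results of these data known. The 11 alternative settings were normexp background correction (offset 50, on median spot signals), 4 other scalings, 2 filters, dim signals at the floor, the deposited table, a 2-fold threshold and the median over probes. A pair of settings for the spots of CDH1 were added after the data were seen. The code that applies the fold threshold was checked on simulated signals, which is no test of the differences. Software was Python 3.11.15 (pandas 2.3.3, numpy 2.4.6, matplotlib 3.10.9) and, for normexp, limma 3.58.1 in R 4.3.3. The number of arrays limits the precision.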

Additional observations from a re-analysis of the deposited data

Results flagged for a closer look

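Measured on all 3 arrays were 7 members and 129 other list genes. Of those reported by name, here or above, 10 were past 1.5-fold with both agents but with opposite signs, and none of them was a member. The share of all genes with this pattern was not counted. Neither the 10 nor the lack of a member is therefore read as a result about the members. With 1 array per group the difference between the agents was not tested, and the values share a control array. In the direction of higher with cantharidin and lower with okadaic acid, the log2 differences were 1.64 and -1.03 for CDH3 (P-cadherin), 1.02 and -1.40 for NT5E, 1.43 and -0.66 for COL3A1, 0.83 and -1.04 for BFSP1, and 0.68 and -0.78 for FBXO11.

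In the other direction, ELF3 showed the largest fall, with -3.30 under cantharidin and 0.74 under okadaic acid. The values were -1.97 and 0.65 for THY1 and -0.89 and 1.79 for SYNM. KLF8 had -0.88 and 0.81, and GSC had -0.78 and 1.11.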

How the results depend on the processing

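No paired analysis was possible because each group had 1 array. The number of members called stayed within 1.5 times of its value for each comparison and direction in 64 of 66 cases. The exceptions were the members lower with okadaic acid than with cantharidin, of which 1 (SNAI2) was left without scaling and 1 at a 2-fold threshold. A 2-fold threshold also reduced the genes past it to 10 of 25 for the junction list, 14 of 33 for the partners, 4 of 16 for the other transcription factors and 5 of 13 for the filament list with okadaic acid, to 7 of 16 for the other transcription factors and 4 of 14 for the filament list with cantharidin, and to 5 of the epithelial regulators with each agent. Over all genes at the 2-fold threshold, 20.1% were higher and 22.3% lower with cantharidin, and 18.8% and 19.0% with okadaic acid. The reduced counts are therefore not read as a result about the lists. Of the antisense RNAs, 1 passed 1.5-fold with okadaic acid under median scaling, quantile normalization and the deposited table. The second ZEB1 probe turned from lower to 0.26 for okadaic acid against cantharidin when its dim signal was set to the floor. The normexp correction moved dim members most. Its offset of 50 is added to every signal before the log, which by arithmetic narrows log2 differences of dim probes more than those of bright ones. How much of the change came from the offset was not tested. Signals near the floor limit SNAI2, TWIST1, ZEB2 and the treated CDH1 values. Without scaling, the median of all genes moved to -0.30 with cantharidin, 0.26 with okadaic acid and 0.52 between the agents, and median scaling moved the last 2 to -0.11 and -0.02.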

Other observations

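Some list genes were well above background on the treated arrays only, and they are given here after their values were seen. OVOL1, an epithelial zinc finger repressor, was at least 5.47-fold higher with cantharidin than in control, from a control intensity of 7.53 to 174, and stood at 53.5 with okadaic acid. CDH11, a further mesenchymal cadherin, was at least 2.12-fold higher with okadaic acid, where control cells gave 23.8, cantharidin cells 13.7 and okadaic acid cells 88.4. PDGFRB, a fibroblast marker, stood at 17.5, 375 and 36.8 and was at least 11.8-fold higher with cantharidin. COL1A1 went the other way, from 528 in control to 16.6 and 35.7, at least 21.9-fold lower with cantharidin and at least 10.9-fold lower with okadaic acid.

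Among the ductal markers, KRT18 was higher with both agents (log2 differences of 0.99 and 1.20), while KRT7, SOX9 and MUC1 were below control with both. KRT7 differed by -0.56 and -0.74, and MUC1 by -0.63 and -1.02. KRT19 was 0.44 above control with cantharidin and 1.37 with okadaic acid, and KRT8 differed by -1.17 with cantharidin.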
